A study of Mus musculus with 9 samples.

Results

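The interferon-induced members of the PARP family and their partners were followed in CD45+ cells from mouse sarcoma grafts. The set holds 7 of the 45777 genes in the read count table, chosen by symbol: Parp9, Parp10, Parp11, Parp12, Parp14, Dtx3l and Zc3hav1. All 7 were among the 16373 genes that passed the filter on low counts, with 610 to 8861 counts per library. WEHI-164, a mouse fibrosarcoma line, was grafted under the skin of BALB/c mice, and the grafts of all groups were collected at day 7 of treatment. The control group received neither drug, and the study describes it as treated with a control vehicle. The doxorubicin group received 5 mg/kg doxorubicin into the tumor once a week, and the doxorubicin + ADU-S100 group, called the combination here, also received 25 µg of ADU-S100 into the tumor 2 times a week. ADU-S100 is an agonist of STING, the adaptor through which cytosolic DNA induces type I interferon. The design has no group given ADU-S100 alone. Each group has 3 libraries, which the study describes as biological replicates. Whether a library stands for 1 mouse or a pool is not given in the sources used here, and p-values measure the spread between these libraries. The grafted line is a single tumor model, and the sort by magnetic beads takes all leukocytes together.

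PARP enzymes transfer ADP-ribose from NAD+ to proteins. A subgroup of the family is transcribed in response to interferon through STAT and IRF factors, and most of these enzymes attach a single ADP-ribose unit. They are known mainly from antiviral defence and macrophage activation. Parp10, Parp11, Parp12 and Parp14 encode such mono-ADP-ribosyltransferases. Parp9 pairs with the ubiquitin ligase encoded by Dtx3l. Zc3hav1 encodes ZAP, also called PARP13, which binds viral RNA rich in CpG and lacks transferase activity.

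The libraries held between 50110494 and 69456603 counts (median 54587679). Levels are in CPM, which puts the counts of each library on a common scale, here by TMM. The leukocyte markers Ptprc, Cd52, Cd53, Laptm5 and Coro1a were all detected in each group, with summed levels of 2523 to 3987 CPM in control, 3284 to 4150 CPM with doxorubicin and 2049 to 4091 CPM with the combination. Markers of fibroblasts and sarcoma cells, 12 of 12 detected in each group, summed to 186 to 1562 CPM in control, 159 to 935 CPM with doxorubicin and 132 to 2099 CPM with the combination. The highest of these 9 values, 2099 CPM, was that of combination replicate 3, which also had the lowest Ptprc level at 202 CPM. The ranges of all 3 groups overlapped for both lists. Combination replicate 1 stood apart in other ways: its 5 macrophage markers summed to 2078 CPM, against 3822 to 8499 CPM in the other libraries, its 5 monocyte markers to 2186 CPM, against 909 to 1829 CPM, and mitochondrial genes held 13.1% of its counts, against 1.26% to 7.62%. The part of these differences in the results was not tested. In bulk RNA, fewer cells of a type and less RNA per cell cannot be told apart.

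Parp9 was the gene of the set whose combination libraries stood apart from both other groups. Its level was 79.2, 51.8 and 43.4 CPM in control replicates 1, 2 and 3, it was 54.5, 68.2 and 64.5 CPM with doxorubicin, and it was 92.6, 114 and 79.3 CPM with the combination. All 3 combination libraries lay above all control and all doxorubicin libraries, although combination replicate 3 exceeded control replicate 1 by only about 0.1 CPM. The means were 58.1 ± 18.7 CPM in control, 62.4 ± 7.05 CPM with doxorubicin and 95.3 ± 17.6 CPM with the combination (SD, n = 3 each). The fitted log2 fold change was 0.71 against control (SE 0.25, unadjusted p = 0.0179, edgeR adjusted p = 0.948) and 0.61 against doxorubicin (SE 0.25, unadjusted p = 0.0352, edgeR adjusted p = 0.9995). Doxorubicin alone differed from control by 0.10 (SE 0.25). Parp9 was the only gene of the set whose libraries did not overlap, 1 of 7 in each comparison of the combination, where 4.39% of all tested genes lay entirely above control and 3.53% lay entirely above doxorubicin. Against control the separation was lost, leaving 0 of 7, on unscaled library sizes and without mitochondrial and haemoglobin genes.

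Dtx3l encodes the ubiquitin ligase that binds PARP9, and over the 9 libraries its log2 CPM had a Pearson correlation of 0.67 with that of Parp9. Its level was 93.1, 36.8 and 33.7 CPM in control, 51.9, 58.9 and 70.8 CPM with doxorubicin and 66.2, 66.1 and 45.4 CPM with the combination. The highest library of all 9 was control replicate 1 and the lowest was control replicate 3, so the control libraries enclosed the other groups. The log2 fold change was 0.12 against control (SE 0.38, unadjusted p = 0.758) and -0.03 against doxorubicin (SE 0.37, unadjusted p = 0.934). The control value rests on replicate 1: without it, the difference from control was 0.75 (SE 0.24, unadjusted p = 0.0135) for the combination and 0.78 (SE 0.24, unadjusted p = 0.0112) for doxorubicin, and without control replicate 3 these were -0.13 and -0.08.

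The ratio of Parp9 to Dtx3l counts within a library does not depend on the scaling of library sizes, and it was examined after the values of both genes had been seen. It was 0.851, 1.41 and 1.29 in control, 1.05, 1.16 and 0.912 with doxorubicin and 1.40, 1.73 and 1.75 with the combination. All combination libraries lay above all doxorubicin libraries, and 1 control library, replicate 2 with a ratio of 1.41, lay just above the lowest combination library with 1.40. The mean ratio was 1.62 ± 0.195 with the combination, 1.04 ± 0.123 with doxorubicin and 1.18 ± 0.292 in control (SD, n = 3 each). The two-sided exact permutation test over libraries gave p = 0.1 against doxorubicin, the smallest that 3 against 3 libraries allow, and p = 0.2 against control, with adjusted p = 0.3 for both over the 3 comparisons. The difference between doxorubicin and control had p = 0.5 by the same exact test.

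**Figure D1:**
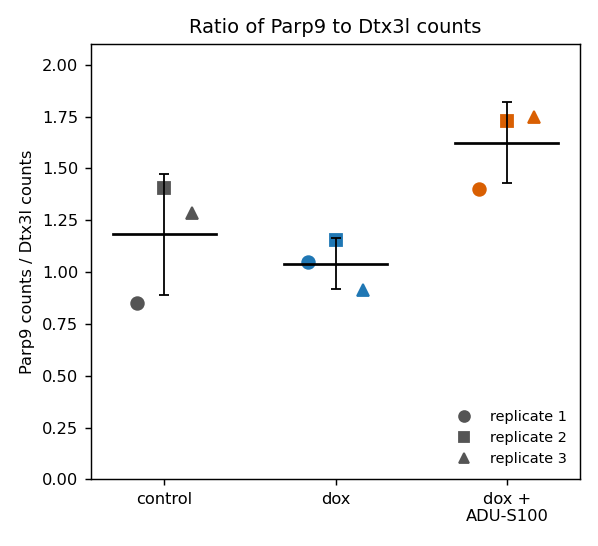
Ratio of Parp9 counts to Dtx3l counts in every library (vertical axis, no unit) by group, with the mean and SD of 3 libraries as black bars and a symbol for each replicate. The 3 combination libraries lie between 1.40 and 1.75 and the 3 doxorubicin libraries between 0.912 and 1.16, while the control libraries span 0.851 to 1.41.

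Parp9 and Dtx3l stand head to head on chromosome 16 of GRCm38 (mm10). In the GENCODE vM21 annotation Parp9 lies at chr16:35938470-35972605 on the plus strand and Dtx3l at chr16:35926511-35939151 on the minus strand. Their exons share 458 bases on opposite strands. The libraries came from a stranded kit, but the sources do not state whether the counting used the strand, so reads from those bases cannot be assigned with certainty. Parp14 lies beside them at chr16:35832874-35871544 on the minus strand.

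Parp14, a large mono-ADP-ribosyltransferase with macrodomains that is known in mice as a cofactor of STAT6, had the widest range of the set in CPM. Its level was 141, 82.3 and 60.8 CPM in control, 89.3, 77.6 and 80.7 CPM with doxorubicin and 168, 201 and 77.6 CPM with the combination. Combination replicates 1 and 2 were the highest of the 9 libraries, whereas combination replicate 3 was level with the lowest doxorubicin library. The log2 fold change was 0.65 against control (SE 0.38, unadjusted p = 0.123, edgeR adjusted p = 0.948) and 0.85 against doxorubicin (SE 0.39, unadjusted p = 0.0541, edgeR adjusted p = 0.9995). Doxorubicin alone was at -0.20 against control (SE 0.38). Of all tested genes, 5.16% had a larger log2 fold change than Parp14 in the combination against doxorubicin.

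Zc3hav1, the gene of ZAP, was measured on chromosome 6 at chr6:38305286-38354603 on the minus strand. Its level was 118, 93.5 and 81.5 CPM in control, 85.3, 84.6 and 96.0 CPM with doxorubicin and 146, 186 and 92.6 CPM with the combination. Replicates 1 and 2 of the combination again were the highest of all libraries, and replicate 3 lay within the doxorubicin range. The log2 fold change was 0.67 against doxorubicin (SE 0.26, unadjusted p = 0.0284, edgeR adjusted p = 0.9995) and 0.53 against control (SE 0.26, unadjusted p = 0.0687, edgeR adjusted p = 0.948). The doxorubicin group was at -0.14 against control (SE 0.26). Zc3hav1 and Parp14 had the closest pair of patterns within the set, with a Pearson correlation of log2 CPM of 0.956 over the 9 libraries.

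Parp10, which encodes a mono-ADP-ribosyltransferase first described as a partner of MYC, was at 50.1, 33.6 and 32.0 CPM in control, 45.9, 51.8 and 60.1 CPM with doxorubicin and 81.5, 79.5 and 44.8 CPM with the combination. It had the largest log2 fold change of the set against control, 0.83 (SE 0.27, unadjusted p = 0.0135, edgeR adjusted p = 0.948). Combination replicate 3 nevertheless lay below control replicate 1 and below all 3 doxorubicin libraries. Against doxorubicin the difference was 0.38 (SE 0.27, unadjusted p = 0.191), and doxorubicin alone was at 0.45 against control (SE 0.27, unadjusted p = 0.131). In GENCODE vM21 the gene lies at chr15:76231174-76243441 on the minus strand, where its exons share 205 bases with Plec on the same strand. The RefSeq model of Parp10 spans 76232995 to 76243440, which is beyond the GENCODE end of Plec at 76232574. Whether a part of the Parp10 counts belongs to Plec depends on the gene models used for counting and was not tested.

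Parp12 encodes a mono-ADP-ribosyltransferase with RNA-binding zinc fingers and lies at chr6:39086410-39118349 on the minus strand. Its level was 92.6, 58.5 and 50.1 CPM in control, 59.3, 93.2 and 74.4 CPM with doxorubicin and 115, 105 and 48.7 CPM with the combination. Combination replicate 3 was the lowest of all 9 libraries for this gene, while replicates 1 and 2 were the highest. The log2 fold change of 0.42 against control (SE 0.35, unadjusted p = 0.268) and of 0.24 against doxorubicin (SE 0.35, unadjusted p = 0.508) were within this spread.

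Parp11 was the lowest of the set, at 25.7, 13.3 and 11.3 CPM in control, 16.3, 17.6 and 18.8 CPM with doxorubicin and 25.6, 18.2 and 21.3 CPM with the combination. The enzyme has been tied in human cells to the turnover of the type I interferon receptor. As for Dtx3l, control replicate 1 was the highest of all libraries. The log2 fold change was 0.37 against control (SE 0.31, unadjusted p = 0.257) and 0.30 against doxorubicin (SE 0.31, unadjusted p = 0.347). Without control replicate 1 the difference from control was 0.82 (SE 0.23, unadjusted p = 0.0077).

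Per kilobase of exon, averaged over the 9 libraries, the order of levels was Parp12 (19.4 CPM per kb), Zc3hav1 (16.8), Parp9 (14.8), Parp10 (12.5), Parp14 (11.7), Dtx3l (10.2) and Parp11 (2.66). Parp11 stood well below the others, and the first 6 spanned less than a factor of 2. The SD over control libraries was 19.1% of the mean for Zc3hav1 and 61.2% for Dtx3l, and neighbours among the first 6 differ by less than their spread.

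**Figure D2:**
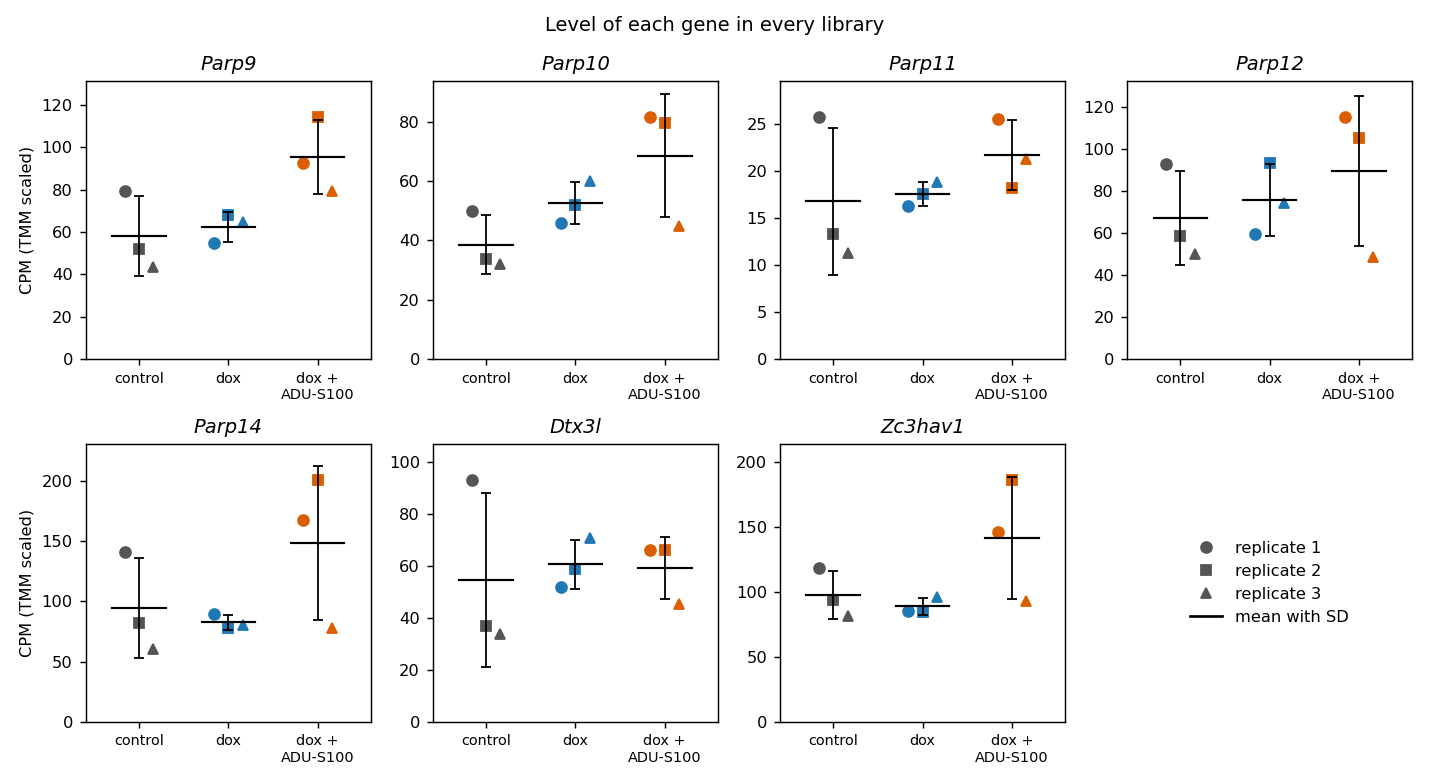
CPM of each of the 7 genes in every library (vertical axes start at 0, each gene on its own scale), by group, with a symbol for each replicate and the mean with SD of 3 libraries in black. Combination replicates 1 and 2 are high for most genes, combination replicate 3 is lower, and control replicate 1 lies above the other control libraries in all 7 panels.

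Against control, the combination had a positive log2 fold change for 7 of 7 genes, where 56.9% of all tested genes were positive. The median over the set was 0.53, beside 0.06 over all genes. None passed an adjusted p of 0.05 in edgeR (0 of 7, with 0% of all genes), DESeq2 or limma-voom, and none passed the study thresholds of a fold above 2 with an unadjusted p under 0.05 (0 of 7, with 1.46% of all genes higher). Parp9 and Parp10 had an unadjusted p under 0.05 in edgeR (2 of 7, with 2.83% of all genes higher), the same number as in DESeq2 (2.23% of its 25125 unfiltered genes higher), and 4 genes did in limma-voom (6.69% of all genes higher).

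Against doxorubicin, the combination was positive for 6 of 7 genes (58.6% of all genes), with a median of 0.38 beside 0.07 over all genes. Again 0 of 7 passed an adjusted p of 0.05 in edgeR (0% of all genes), DESeq2 or limma-voom. In edgeR 0 of 7 passed the study thresholds (0.867% of all genes higher), as in DESeq2, while in limma-voom 1 did (2.36% of all genes higher), Parp14 with 1.06 (SE 0.29, unadjusted p = 0.0049). Parp9 and Zc3hav1 had an unadjusted p under 0.05 in edgeR (2 of 7, with 1.97% of all genes higher), and 3 genes did in DESeq2 (1.54% of its genes higher) and in limma-voom (6.38%). With the replicate number as a block, 0 genes did. This comparison and the one against control share the combination libraries.

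Doxorubicin alone gave smaller values. The log2 fold change from control was positive for 5 of 7 genes (48.9% of all genes), from -0.20 for Parp14 to 0.45 for Parp10, with a median of 0.10 beside -0.01 over all genes. No gene of the set passed an adjusted p of 0.05 in edgeR (0% of all genes) or in either other tool. None passed the study thresholds (0.36% of all genes higher). At an unadjusted p of 0.05, none passed in edgeR (0.513% of all genes higher) or in DESeq2 (0.677% of its genes higher). In limma-voom 1 gene had an unadjusted p under 0.05 (1.96% of all genes higher). In none of the 7 did all doxorubicin libraries lie above all control libraries, as 1.77% of all genes did.

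**Figure D3:**
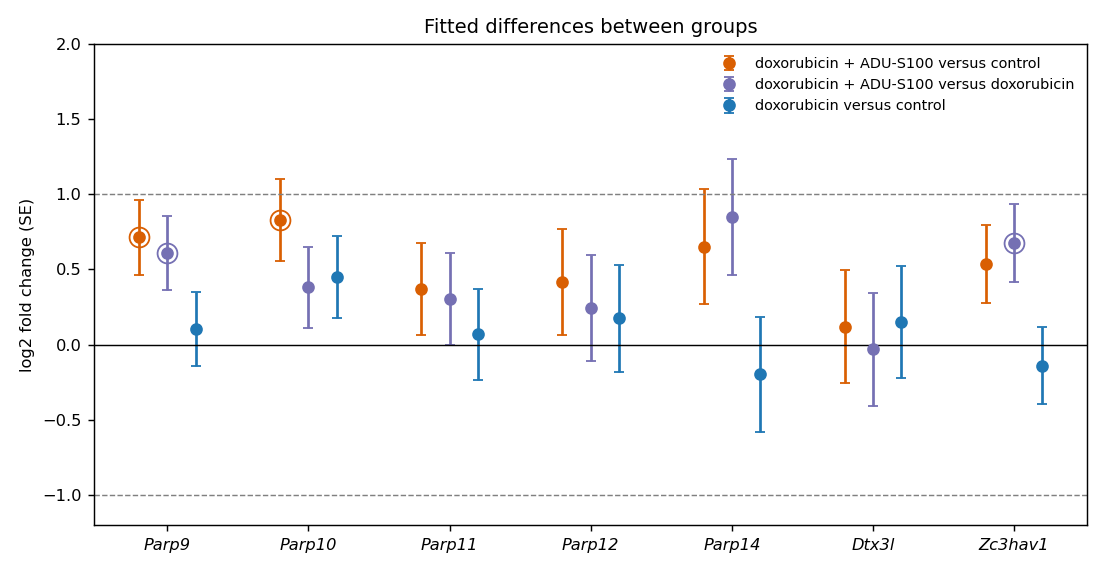
Fitted log2 fold change of each gene in the 3 comparisons (points) with its standard error (bars). Dashed lines mark a fold of 2 in either direction and a ring marks an unadjusted p under 0.05. Both comparisons of the combination lie above 0 for all genes but Dtx3l, whose values are near 0, no point passes a dashed line, and no adjusted p was under 0.05.

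Leaving out single libraries moved these values. Control replicate 1 ranked in the upper part for the whole set, with a median rank of 7 of 9 counted from the lowest, and control replicate 3 was the lowest library for 6 of 7 genes. Combination replicates 1 and 2 each had a median rank of 8, and combination replicate 3 a median rank of 3. The mean log2 CPM over the 7 genes was 6.25, 5.50 and 5.28 in control, 5.69, 5.86 and 5.92 with doxorubicin and 6.43, 6.47 and 5.73 with the combination. The doxorubicin libraries were close together, and the other groups were each split by 1 library.

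Without control replicate 1, the combination had 3 of 7 genes past the study thresholds against control, Parp9, Parp10 and Parp14, with log2 fold changes of 1.00, 1.06 and 1.06, and 6 of 7 had an unadjusted p under 0.05. Of all genes tested in that fit, 2.06% were higher past the thresholds and 2.78% at the unadjusted p. Without combination replicate 3, Parp10 passed these thresholds against control with 1.06 (SE 0.23, unadjusted p = 0.0013) and Parp14 passed them against doxorubicin with 1.16 (SE 0.31, unadjusted p = 0.0052), and 5 of 7 and 4 of 7 genes had an unadjusted p under 0.05. The shares over all genes also rose in this fit, to 3.15% and 2.08% higher past the thresholds and to 6.49% and 4.84% at the unadjusted p. In the other direction, the count at the unadjusted p against control fell to 0 of 7 without control replicate 3 and to 1 of 7 without control replicate 2 or without combination replicate 1 or 2. Against doxorubicin it was 0 of 7 without doxorubicin replicate 1 or without combination replicate 1 or 2, and 1 of 7 without doxorubicin replicate 2 or 3. Over all genes, the share higher at the unadjusted p in the fits with a lowered count was 1.42% to 3.2% for the first comparison, and for the second it was 0.963% to 1.8%. In none of these fits did a gene of the set pass an adjusted p of 0.05.

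**Figure D4:**
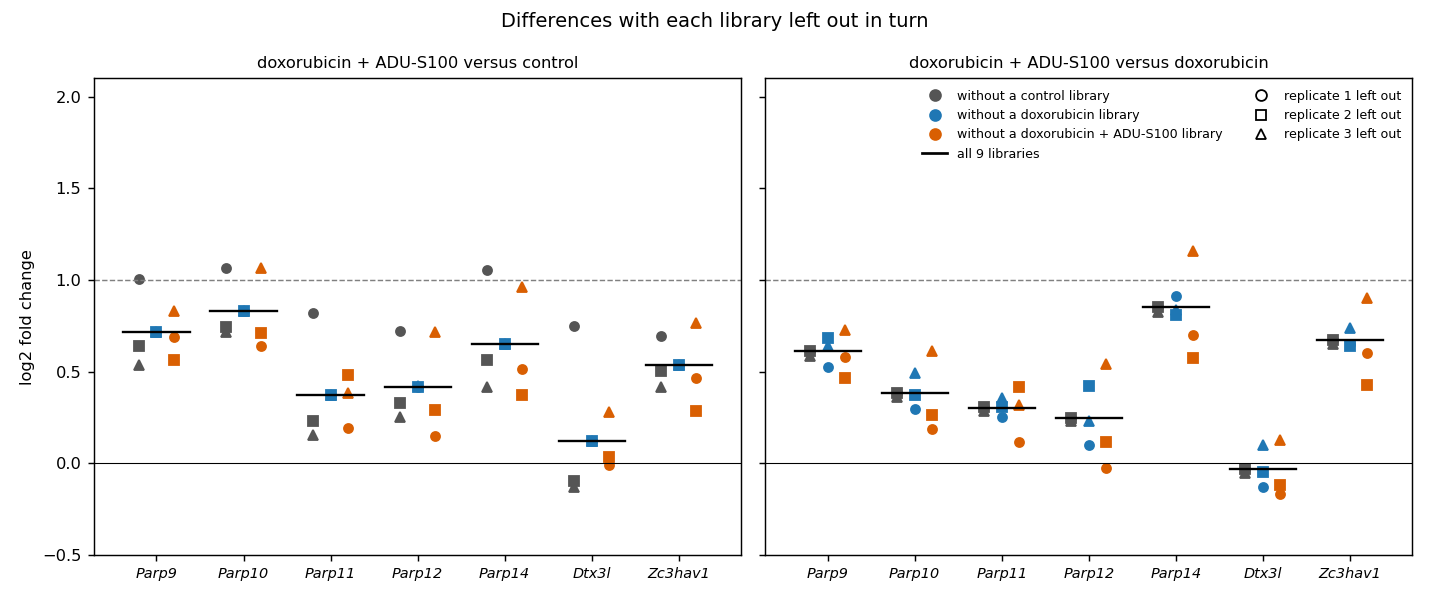
Log2 fold change of each gene with each library left out in turn (vertical axis), for the combination against control (left) and against doxorubicin (right). Color gives the group and symbol the replicate of the library left out, and the black line is the value over all 9 libraries. Leaving out control replicate 1 or combination replicate 3 raises most values, and Dtx3l ranges from -0.13 to 0.75 against control.

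Combination replicate 3 was also the library with the most fibroblast and sarcoma transcripts, with a mean log2 CPM of 5.45 over the 12 markers, and control replicate 2 followed with 5.13. Control replicate 1 had 2.50 and the highest Ptprc level, 588 CPM. Stroma was not the only difference in markers. The 5 neutrophil markers summed to 250.5, 37.5 and 83.6 CPM in control and 209, 297 and 52.7 CPM with the combination. With doxorubicin they summed to 72.3, 153 and 570 CPM. The 5 monocyte markers summed to 1365, 934 and 961 CPM in control and 2186, 1548 and 1045 CPM with the combination. With doxorubicin these summed to 909, 1312 and 1829 CPM. Macrophage markers, also 5, summed to 6755, 4907 and 8315 CPM in control and 2078, 6319 and 3822 CPM with the combination. Their sums with doxorubicin were 7906, 8499 and 4398 CPM. The part of these differences in the results was not tested. With the fibroblast and sarcoma marker mean as a covariate, Parp9 and Parp10 had log2 fold changes against control of 0.73 and 0.82. Without it these were 0.71 and 0.83. Both were named because they had an unadjusted p under 0.05 in edgeR in that comparison. The other genes of the set and the comparison against doxorubicin are not given for the covariate fit. With the library of the highest fibroblast marker mean left out of each group, Parp14 was at 1.22 (SE 0.38, unadjusted p = 0.0155) and Zc3hav1 at 0.87 (SE 0.26, unadjusted p = 0.0120) against doxorubicin, and the 7 genes held 1 past the study thresholds, Parp14, where 2.29% of all genes were. In that comparison 2 of 7 had an unadjusted p under 0.05 (4.49% of all genes higher). Against control the same fit held 0 of 7 past the thresholds (3.27% of all genes higher) and 3 of 7 at the unadjusted p (5.63%). This fit also lacks combination replicate 3, whose omission by itself raised most values. The part of stroma in these values was not tested.

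**Figure D5:**
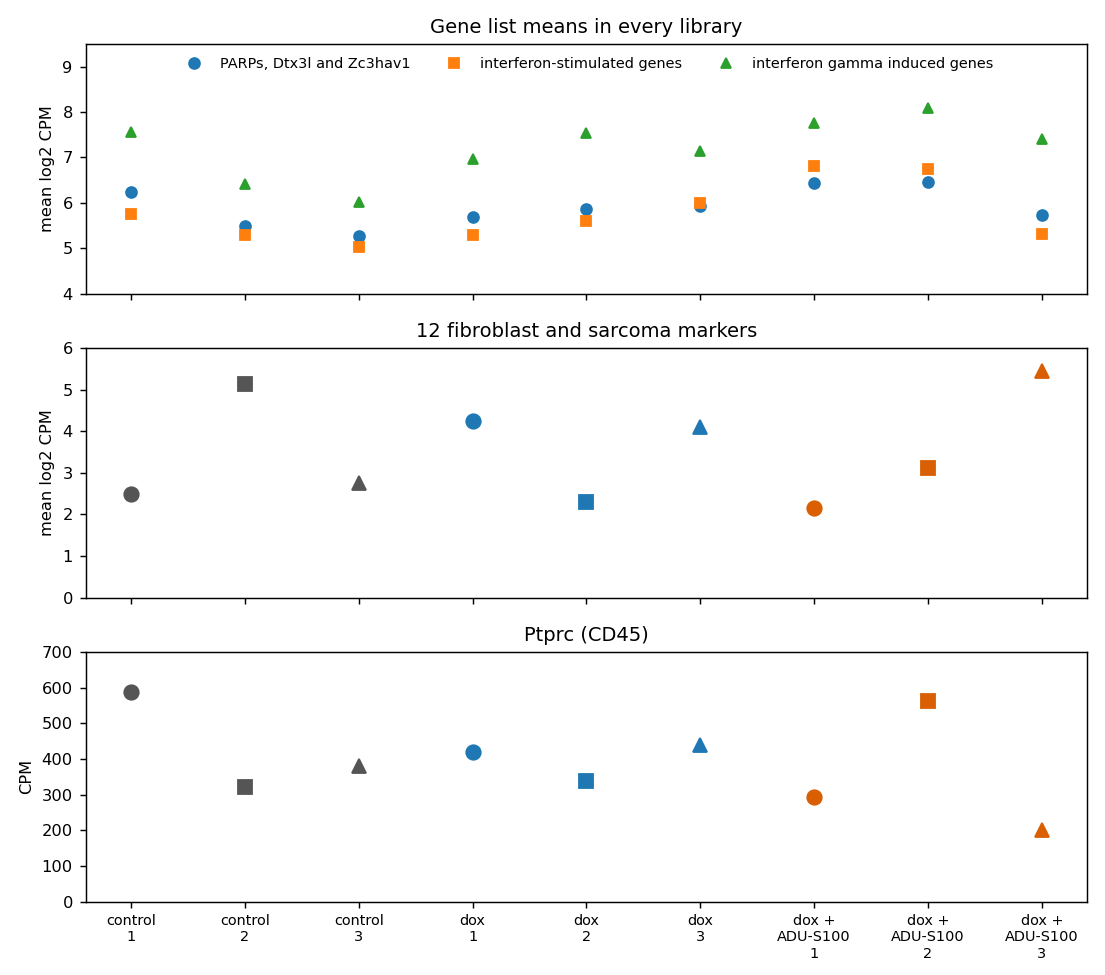
Values in each of the 9 libraries: mean log2 CPM of the 7 genes, of 30 interferon-stimulated genes and of 13 genes induced by interferon gamma (top), mean log2 CPM of 12 fibroblast and sarcoma markers (middle) and CPM of Ptprc (bottom). Combination replicate 3 has the highest marker mean, 5.45, and the lowest Ptprc, 202 CPM, and its 7-gene mean of 5.73 lies below those of combination replicates 1 and 2.

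Other interferon targets gave the setting of these values. Of 30 interferon-stimulated genes, 30 were positive in the combination against control, with a median log2 fold change of 1.10, and 17 passed the study thresholds, where 1.46% of all genes did. Examples were Bst2, which encodes the virus tether tetherin (1.17, SE 0.20, unadjusted p = 0.000222), the proapoptotic factor gene Xaf1 (1.35, SE 0.31, unadjusted p = 0.0018), Ifi35 (1.06, SE 0.25, unadjusted p = 0.0022) and Usp18, the gene of the protease that removes ISG15 from proteins (1.33, SE 0.35, unadjusted p = 0.0039), each with an edgeR adjusted p of 0.948. All 7 genes of the set had smaller log2 fold changes than this median. The count was 10 without control replicate 2 (2.12% of all genes higher) and 8 without control replicate 3 (0.993%). It was 5 without combination replicate 1 (1.02%) and 9 without combination replicate 2 (0.915%). Over all alternatives it ranged from 5 to 22.

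Isg15, a ubiquitin-like modifier, was at 46.1, 36.8 and 39.9 CPM in control, 29.9, 63.9 and 86.5 CPM with doxorubicin and 283, 203 and 49.7 CPM with the combination. Its low value in combination replicate 3 has the same form as those of Parp10, Parp12 and Parp14. Bst2 differed, at 105, 105 and 111 CPM in control and 240, 246 and 237 CPM with the combination, where replicate 3 was as high as the others. Against doxorubicin 4 of 30 passed the study thresholds, Isg15, Mx2, Oasl2 and Xaf1, where 0.867% of all genes did, and this count ranged from 0 without combination replicate 1 or doxorubicin replicate 1 to 18 without combination replicate 3. It was 1 without combination replicate 2 or doxorubicin replicate 2, 2 without control replicate 2 or 3, and 8 without doxorubicin replicate 3. The share of all genes higher past the thresholds was 2.08% without combination replicate 3 and 0.457% to 0.971% in the other fits named.

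Of 13 genes that interferon gamma induces strongly, 13 were positive against control, with a median of 0.94, and 5 passed the study thresholds, where 1.46% of all genes did. The count was 12 without control replicate 1 (2.06% of all genes higher) and 3 without control replicate 2 (2.12%). Irf1, a transcription factor gene of this response, was at 235, 222 and 100 CPM in control, 221, 243 and 199 CPM with doxorubicin and 542, 692 and 565 CPM with the combination. Its 3 combination libraries lay above all others, with log2 fold changes of 1.69 against control (SE 0.31, unadjusted p = 0.000408, edgeR adjusted p = 0.948) and 1.44 against doxorubicin (SE 0.31, unadjusted p = 0.0012). The GTPase gene Irgm1 was at 271, 278 and 263 CPM with the combination, against 164, 86.3 and 59.2 CPM in control. Combination replicate 3 therefore did not have low levels of Irf1 or Irgm1. The other 3 past the thresholds against control were the GTPase gene Igtp (1.49, SE 0.42), the immunoproteasome gene Psmb9 (1.12, SE 0.31) and Gbp2 (1.17, SE 0.50).

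Among the interferon genes, Ifnb1 was at 0.284, 0.230 and 0.222 CPM in control, 0.418, 0.291 and 0.743 CPM with doxorubicin and 0.684, 1.64 and 0.337 CPM with the combination. All 3 doxorubicin libraries and all 3 combination libraries lay above the control libraries, a pattern that 1.77% and 4.39% of all tested genes had. Doxorubicin replicate 2, at 0.291 CPM, was barely above control replicate 1, at 0.284 CPM. The log2 fold change from control was 0.98 with doxorubicin (SE 0.65, unadjusted p = 0.165). With the combination it was 1.84 (SE 0.66, unadjusted p = 0.0205, edgeR adjusted p = 0.948). Ifnb1 had at most 78 counts in a library, and counting error may matter at such levels. Ifng overlapped between all groups, from 0.184 CPM in control replicate 2 to 9.71 CPM in doxorubicin replicate 3. The other 5 interferon genes of the list, among them Ifna4 and Ifna5, had at most 2 counts in any library. Of 10 receptor and signalling genes, 8 were positive against control, with a median of 0.40, and none passed the study thresholds. The receptor genes Ifngr1 and Ifnar2 were at 0.19 (SE 0.18) and 0.35 (SE 0.27). Irf9, the DNA-binding part of the complex that type I interferon activates, was at 0.66 (SE 0.24, unadjusted p = 0.0224) and was picked out after its value was seen.

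Of the 10 remaining PARP genes, 6 were positive against control, with a median log2 fold change of 0.05, and none passed the study thresholds in any comparison. Parp1, the main PARP of DNA repair, was at 111, 112 and 111 CPM in control and 82.0, 75.3 and 100 CPM with the combination, a log2 fold change of -0.38 (SE 0.16, unadjusted p = 0.0437). Tiparp, which encodes the mono-ADP-ribosyltransferase PARP7, was at 98.8, 108 and 83.4 CPM in control and 141, 174 and 103 CPM with the combination, with 0.53 (SE 0.21, unadjusted p = 0.0366), close to the median of the interferon-induced set. Tnks2, a tankyrase gene of similar abundance, was at -0.06 (SE 0.21). Whether the interferon-induced and the other PARP genes differ in their response was not tested.

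Among 8 tested genes for enzymes that remove or read out ADP-ribose, none passed the study thresholds in any comparison, and the median log2 fold change was -0.04 against control and 0.08 against doxorubicin. The most abundant per kilobase was Adprh, an ADP-ribosylarginine hydrolase gene, with 0.37 against control (SE 0.22, unadjusted p = 0.121), followed by Oard1 with 0.27 (SE 0.23) and Adprhl2 with 0.05 (SE 0.21). The 3 tested deltex genes related to Dtx3l, Dtx2, Dtx3 and Dtx4, ranged from -0.53 to 0.24 against control, and none passed the thresholds. None of 8 cofactors and paralogs of ZAP passed the thresholds either. Trim25, the gene of the ubiquitin ligase that ZAP needs for its antiviral action, was at 88.3, 78.5 and 65.1 CPM with doxorubicin and 176, 168 and 89.5 CPM with the combination, without overlap, and its log2 fold change was 0.90 (SE 0.29, unadjusted p = 0.0136, edgeR adjusted p = 0.9995). Against control its libraries overlapped, with 0.59 (SE 0.29, unadjusted p = 0.0771). The RNA helicase gene Ddx17 and N4bp1, an endonuclease gene, were at -0.15 (SE 0.21) and 0.21 (SE 0.26) against control.

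The genes whose log2 CPM followed the set most closely over the 9 libraries were named by their Pearson correlation with the mean of its standardised values, among 13035 other genes with a mean of at least 1 CPM. They were Stat3 (0.979), Oasl2, Samhd1 and Nos2 (0.964 each), Mmp25 (0.961), Jak2 and Adar (0.956 each), Pfkp (0.952), Acod1 (0.950) and Tor3a (0.949). Stat3, at 178 CPM on average, had a log2 fold change of 0.29 against control, Samhd1 of 0.81 and Nos2 of 1.88. The correlations are descriptions over libraries that share their group, cell makeup and depth. Within the set, each gene's correlation with the mean of the other 6 was lowest for Parp11 (0.745) and Dtx3l (0.780) and highest for Parp9 (0.898).

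Promoter windows of GRCm38 from RefSeq, from 250 bases before to 50 bases after a start, were held for 4 of the 7 genes, in 5 windows: Dtx3l, Parp11 with both of its starts, Parp12 and Zc3hav1. They were searched on both strands for the core of the interferon-stimulated response element, GAAANNGAAA, the site at which IRF factors and ISGF3 bind, and for TTCNNNGAA, the form of site that STAT dimers bind. The response element core was found in 1 of the 5 windows, that of the upstream Parp11 start, where it reads on the opposite strand from base -44 to base -35 before the start. A match to the STAT form was found in the same window from base -37 to base -29, overlapping it. Of all 32851 promoter windows, 3.44% hold the first motif and 8.3% the second. A match is not evidence of binding, and a window without one says only that these letters are not there. The 250 bases before both Parp11 starts and before the Parp12 start are shown, on the gene's strand from 5′ to 3′, with the response element core in capitals, since they let the window with a match be read beside windows without one.
Parp11, upstream start, chr6:127446590-127446839, plus strand: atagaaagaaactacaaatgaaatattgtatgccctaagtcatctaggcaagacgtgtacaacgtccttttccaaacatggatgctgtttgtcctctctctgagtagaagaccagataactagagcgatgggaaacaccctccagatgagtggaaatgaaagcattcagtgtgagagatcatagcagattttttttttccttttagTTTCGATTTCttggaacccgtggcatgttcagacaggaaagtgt
Parp11, downstream start, chr6:127453377-127453626, plus strand: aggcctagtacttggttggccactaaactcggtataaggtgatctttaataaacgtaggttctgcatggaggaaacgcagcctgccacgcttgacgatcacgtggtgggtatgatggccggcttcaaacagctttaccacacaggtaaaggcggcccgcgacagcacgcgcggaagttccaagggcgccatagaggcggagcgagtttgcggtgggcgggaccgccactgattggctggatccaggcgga
Parp12, chr6:39118350-39118599, minus strand: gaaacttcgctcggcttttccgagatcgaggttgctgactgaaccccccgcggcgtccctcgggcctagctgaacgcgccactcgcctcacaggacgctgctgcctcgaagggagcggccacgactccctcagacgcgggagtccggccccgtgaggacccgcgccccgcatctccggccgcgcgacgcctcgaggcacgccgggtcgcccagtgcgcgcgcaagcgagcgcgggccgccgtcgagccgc
The window with the match belongs to Parp11, the gene of the set with the lowest level, whose difference from control had an unadjusted p of 0.257 in edgeR. Without control replicate 1 that log2 fold change was 0.82. No window was held for Parp9, Parp10 and Parp14. Whether a match goes with a difference between groups was not tested.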

How the data were processed

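RNA-seq counts of 9 libraries of CD45+ cells were analysed, 3 each of control, doxorubicin and doxorubicin + ADU-S100, grouped by the sample descriptions. Per the labels and the study's methods, the authors made stranded poly(A) libraries (paired reads of 100 bases), used Trimmomatic (0.38) for quality filtering, aligned reads to the mm10 genome by HISAT2 (2.1.0) and derived the deposited counts per gene with StringTie (2.1.3b), as whole numbers that were not normalized. StringTie converts coverage of transcripts to counts, so genes with shared exons may be split imperfectly. The strand setting is not given in the sources used here. The labels name an RNeasy kit and the methods TRIzol for RNA isolation. The doses and the day of harvest come from the study's methods.

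Groups were compared by the quasi-likelihood test of edgeR (4.0.16; R 4.3.3) after filterByExpr and TMM, in 1 model of the 3 group means, two-sided, with Benjamini-Hochberg adjustment over 16373 genes. Alternatives were DESeq2 (1.42.0), limma-voom with quality weights (limma 3.58.1), RLE scaling, no filter, a filter at CPM 1 in 3 libraries, a fit of the compared groups alone, a replicate block, omission of mitochondrial and haemoglobin genes, the fibroblast marker mean as a covariate, omission of the library with the highest marker mean in each group, and omission of each library. The tests were checked on simulated counts. Log2 CPM used a prior count of 2, and levels per kilobase used exon lengths of GENCODE vM21.

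All 7 genes of the set are named. From the other lists, genes past the study thresholds (up to 4 for a list and comparison, smallest p first) and the 3 most abundant per kilobase could be named, and the 10 genes of closest pattern; 1 such gene is not reported here. The members and lists were chosen with earlier results of these data known. For the 7 genes of the set, with at least 610 counts per library, counting error is smaller than the spread between libraries. This need not hold for genes of few counts, such as Ifnb1 with at most 78.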

Additional observations from a re-analysis of the deposited data

How the results depend on the processing

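Under the 19 alternatives, 0 of 7 genes passed an adjusted p of 0.05 in any comparison. The number past the study thresholds against control ranged from 0 to 3 with single libraries left out and was 0 otherwise. Against doxorubicin it ranged from 0 to 1 with single libraries left out, and it was 1 with limma-voom and 1 with the library of the highest fibroblast mean left out of each group. Parp9 no longer lay entirely above control, so that 0 genes did, on unscaled library sizes and, likewise 0, without mitochondrial and haemoglobin genes.

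Directions that turned were small values. With the highest fibroblast libraries left out, Dtx3l was at 0.026 against doxorubicin and Parp11 at -0.022 in doxorubicin against control. With single libraries left out, the log2 fold change of Dtx3l ranged from -0.13 to 0.75 for the combination against control, from -0.17 to 0.13 against doxorubicin and from -0.081 to 0.779 for doxorubicin against control. That of Parp12 ranged from -0.025 to 0.541 against doxorubicin and from -0.005 to 0.478 for doxorubicin against control. In this last comparison the ranges were -0.05 to 0.39 for Parp9, -0.13 to 0.52 for Parp11, -0.41 to 0.21 for Parp14 and -0.234 to 0.019 for Zc3hav1. Parp9, Parp10, Parp11, Parp14 and Zc3hav1 stayed above 0 in both comparisons of the combination under all 19 alternatives.

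Replicate numbers did not pair the libraries: deviations of same-numbered libraries correlated from -0.596 to 0.383, and over 0.1 in 1, 2 and 0 of 3 pairs for the 3 comparisons. As a block they gave a median log2 fold change over the set of 0.51 against control, 0.33 against doxorubicin and 0.15 for doxorubicin against control.

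Over all genes, edgeR called 0 at an adjusted p of 0.05 in each comparison, with 727, 451 and 116 at an unadjusted p under 0.05, and DESeq2 called 27, 4 and 2. Genes past the study thresholds numbered 355, 199 and 74, with a range over the alternatives of 257 to 895, 123 to 679 and 38 to 310. The cause of these differences was not tested. Among 30 interferon-stimulated genes, 4 passed the study thresholds against doxorubicin, where 0.867% of all genes were higher. The count was 8 with limma-voom (2.36% of all genes higher) and 12 with the highest fibroblast libraries left out (2.29%), so the share over all genes rose as well. It was 7 without a filter, 2 in a fit of the 2 groups, 1 with the replicate block and 2 without mitochondrial and haemoglobin genes. Shares over all genes are not given for these last fits. These list counts under alternatives were chosen after seeing the data.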
